A study of Mus musculus with 8 samples.

Results

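The genes of the cytosolic ribosomal proteins were followed in the newly made RNA of mouse macrophages grown from bone marrow, over a course of lipopolysaccharide (LPS), a bacterial outer membrane molecule that macrophages sense. A gene was taken as a member if its symbol had the form Rpl, Rps or Rplp followed by a number, with pseudogenes and the Rps6k kinases left out. The rule found 84 genes among the 22753 in the table, namely 46 of the large subunit, 30 of the small subunit and 8 named as paralogs of another member. Values chose no member. The rule passes over 4 proteins of the cytosolic ribosome with other kinds of name, Rpsa and Fau among them, which are given separately below.

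The ribosome's proteins are made in near-equal amounts and join ribosomal RNA in the nucleolus, so their genes are usually transcribed strongly and together. Their mRNAs begin with a run of pyrimidines, the TOP motif, through which the kinase mTOR controls their translation. Macrophages that meet LPS redirect transcription to cytokine and chemokine genes, and ribosomal protein genes are commonly used as a housekeeping class beside them.

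The macrophages were grown from marrow of male C57BL/6 mice aged 8 weeks and kept in serum-free medium. Cells without treatment formed the 0 min group, and the other groups received 100 ng/ml LPS for 20, 60 or 180 min. Global run-on sequencing (GRO-seq) lets engaged polymerases extend their RNA in isolated nuclei with a bromouridine label, and the labelled RNA is sequenced, so a value reads transcription and not the amount of mRNA. Each group had 2 libraries, which the labels call biological replicates, and the p-values measure the spread between these libraries only. Whether animals were pooled is not given in the sources used here. With bulk material of this kind, fewer nuclei of a type and less nascent RNA per nucleus cannot be told apart.

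Reading depth from the steps between low FPKM values gave 44.4 to 61.2 M reads in replicate 1 and 7.96 to 11.1 M reads in replicate 2. The 8 macrophage markers summed to 59.8 to 216 FPKM (fragments for each kilobase of a gene, relative to a library's total), whereas the sums for T and NK cell, B cell, neutrophil, erythroid and stromal markers lay between 0 and 2.45 FPKM. Hbb-b1, a globin gene of red cells, was at 0 in all 8 libraries. The summed level of 6 LPS response genes, Tnf and Nfkbia among them, was 50.2 and 71.97 FPKM at 0 min and 1320 and 1884 at 180 min, replicate 1 first.

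RefSeq promoter windows on GRCm38.p6 matched 63 of the 84 members, in 75 windows of 300 bases. The stretches below run from 90 bases before to 12 bases after the annotated start. Shown are the 3 members with the highest mean FPKM (Rpl41, Rps2 and Rps27) and Rpl24, whose nascent RNA rose. Rpl38 is added because it was higher in replicate 2 where most members were higher in replicate 1. Rplp0 and Rpl13a are added because they moved in the paired fit described below. Capitals mark CCGGAAG, the core bound by ETS factors, GGGCGG, the core bound by SP1, AAGATGG, the core bound by YY1, and TATAAA. The first 3 were searched on both strands, so their reverse complements are capitals too, and TATAAA on the gene's strand alone.
Rpl41: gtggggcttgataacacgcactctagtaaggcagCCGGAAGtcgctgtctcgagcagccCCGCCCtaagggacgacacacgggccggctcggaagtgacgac
Rps2: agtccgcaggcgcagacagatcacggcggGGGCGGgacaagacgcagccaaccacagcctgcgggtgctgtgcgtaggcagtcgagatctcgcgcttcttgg
Rps27: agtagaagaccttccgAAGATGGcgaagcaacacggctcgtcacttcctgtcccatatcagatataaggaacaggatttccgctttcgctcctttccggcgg
Rpl24: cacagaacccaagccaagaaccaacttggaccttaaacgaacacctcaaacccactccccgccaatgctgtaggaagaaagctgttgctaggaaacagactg
Rpl38: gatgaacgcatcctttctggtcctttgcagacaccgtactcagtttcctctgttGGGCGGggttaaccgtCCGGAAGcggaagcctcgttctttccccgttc
Rplp0: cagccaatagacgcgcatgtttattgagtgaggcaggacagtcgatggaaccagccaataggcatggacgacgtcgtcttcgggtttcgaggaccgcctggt
Rpl13a: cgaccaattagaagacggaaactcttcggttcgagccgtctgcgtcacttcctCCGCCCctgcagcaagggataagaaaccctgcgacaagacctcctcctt
Rps27 carries AAGATGG in this stretch, Rpl41 and Rpl38 carry CCGGAAG and GGGCGG, and Rps2 and Rpl13a carry GGGCGG. The stretches of Rpl24 and Rplp0 hold none of the 4. Coordinates run from chr10:128549157-128549258 (minus strand) for Rpl41, chr17:24719973-24720074 (plus) for Rps2, chr3:90213637-90213738 (minus) for Rps27 and chr16:55966185-55966286 (plus) for Rpl24. For Rpl38 the stretch is chr11:114668490-114668591 (plus), for Rplp0 chr5:115559377-115559478 (plus) and for Rpl13a chr7:45128734-45128835 (minus).

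Across the 75 full windows of members, AAGATGG was found in 16% of windows, against 7.85% of 8004 windows of other tested genes and 6.34% of all 32851 windows. CCGGAAG was in 34.7% of members' windows, 20.2% of those of other tested genes and 8.86% of all. A TOP-like run, counted as a C followed by at least 4 pyrimidines and beginning within 20 bases of the start on either side, was in 76% of members' windows, 49.5% of those of other tested genes and 49.4% of all. By this count the windows of Rps2, Rps27, Rpl38, Rplp0 and Rpl13a held such a run, and those of Rpl41 and Rpl24 did not. GGGCGG was in 60% of members' windows, 63.8% of those of other tested genes and 35.7% of all. TATAAA was in 8%, 4.15% and 8.32%. These shares are a description of letters, with some genes in more than 1 window, and all but GGGCGG were more frequent in the members' windows than in those of other tested genes. Members without a window included Rps20, Rpl32, Rps29, Rplp1, Rpl17, Rpl29, Rpl3, Rpl7, Rpl30, Rpl8, Rpl36, Rps14, Rps4l, Rps27a, Rpl21 and Rpl23a.

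Ribosomal protein genes had FPKM above that of most genes tested in these macrophages at all 4 times. Levels were not compared among genes of like length, and members are shorter than genes in general. Of the 84 members, 80 averaged at least 0.5 FPKM across the libraries and entered the tests with 8343 genes in all. In replicate 1 the median of these 80 members was 8.10, 7.32, 10.9 and 8.97 FPKM at 0, 20, 60 and 180 min. In replicate 2 it was 3.77, 4.05, 4.18 and 3.25 FPKM. The medians of all genes tested lay between 0.800 and 1.77 FPKM, and the member median stood at the 84.0th to 94.5th percentile of all genes tested in each library. The plot of levels by library shows the members' band lower in replicate 2 than in replicate 1.

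**Figure D1:**
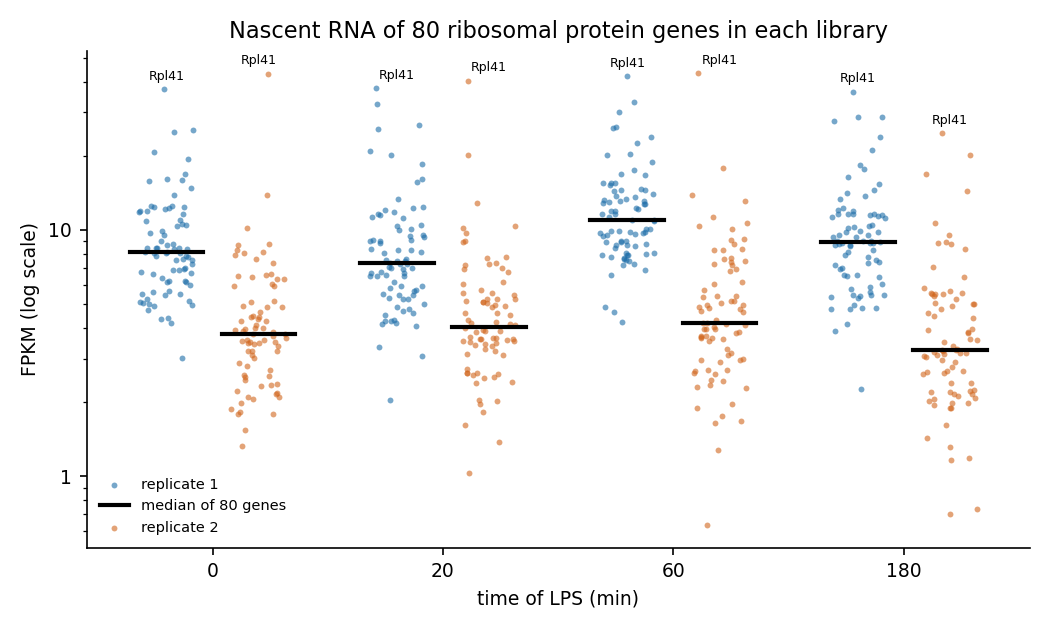
FPKM (log scale) of the 80 tested ribosomal protein genes, 1 point per gene, in each of the 8 libraries at 0, 20, 60 and 180 min of LPS (times evenly spaced). Black bars are medians, which run from 7.32 to 10.9 FPKM in replicate 1 and from 3.25 to 4.18 FPKM in replicate 2, and Rpl41 is the highest point in each library.

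The members were not at equal FPKM, and the part of gene length and of read placement in this was not tested. Rpl41, which encodes one of the smallest ribosomal proteins, was at 37.4 and 43.1 FPKM at 0 min, 37.7 and 40.3 at 20 min, 41.98 and 43.2 at 60 min and 36.4 and 24.7 at 180 min. It was the highest member in every library, and both its 180 min values were below all others. Its 0 min values overlapped those of 20 and of 60 min, and both 60 min values were above both 20 min values. Rps2, a small subunit protein near the mRNA entry site, was next by mean level, at 20.8 and 7.899 FPKM at 0 min, 25.7 and 12.9 at 20 min, 30.2 and 7.18 at 60 min and 28.7 and 20.2 at 180 min. Rps27 was at 24.96 and 7.34 FPKM at 0 min, 32.4 and 5.24 at 20 min, 33.1 and 5.13 at 60 min and 28.7 and 8.83 at 180 min, and all its replicate 1 values were above all its replicate 2 values. Same-strand rows of the table overlap Rps27, Rpl26, Rpl30 and Rpl34 (Rps27rt, Gm15772, Gm12191 and Rpl34-ps1), so the reads of these 4 members may be shared. Ribosomal protein genes also have many processed pseudogenes, and how reads with several matches were placed is not given in the sources used here. Rpl10, a late-joining large subunit protein near the peptidyl transferase site, was at 16.1 and 13.8 FPKM at 0 min, 20.1 and 20.2 at 20 min, 15.6 and 9.18 at 60 min and 15.4 and 16.8 at 180 min. Its values were close between replicates at 0, 20 and 180 min and differed at 60 min.

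At the low end, Rpl22, an RNA-binding large subunit protein, was at 3.03 and 1.88 FPKM at 0 min, 2.04 and 1.38 at 20 min, 4.66 and 2.62 at 60 min and 2.27 and 0.706 at 180 min. Rps4x, the X-linked small subunit gene, was at 4.19 and 1.78 FPKM at 0 min, 3.07 and 1.82 at 20 min, 4.24 and 1.68 at 60 min and 4.17 and 2.16 at 180 min. Rpl36 had 6.15 and 1.54 FPKM at 0 min, 5.67 and 1.03 at 20 min, 8.45 and 0.633 at 60 min and 5.78 and 0.738 at 180 min, and the replicate 2 values rested on 5 to 12 reads per library. These members were still above the median of all genes tested in replicate 1. The ratio of the highest to the lowest member within a library was 9.91 to 18.5 in replicate 1 and 32.3 to 68.3 in replicate 2.

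Members agreed in rank over time within a replicate. The Spearman correlation over the 80 members between 0 min and a later time was 0.87 to 0.95 in replicate 1 and 0.69 to 0.88 in replicate 2. Between replicates at the same time it was 0.44 to 0.78. Shorter members had higher FPKM in replicate 1 (rho -0.53 to -0.39), and less so in replicate 2 (rho -0.19 to -0.03). These correlations are over genes that share libraries and depth and carry no test.

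Replicate 1 gave higher FPKM than replicate 2 for most members, and by more than for genes in general. The median difference in log2(FPKM + 0.1), replicate 1 minus replicate 2, was 1.14, 0.80, 1.30 and 1.30 over the members at 0, 20, 60 and 180 min, against 0.20, 0.07, 0.35 and 0.53 over all genes tested. In 71 of the 80 members replicate 1 was higher at all 4 times. Members are short, with a median length of 2936 bases against 16248 bases for all genes tested, and short genes of other kinds differed in the same direction. Among genes of 2000 to 4000 bases the 46 members had medians of 1.17, 0.81, 1.29 and 1.32, and the 709 other genes 0.73, 0.50, 1.08 and 0.90. The part of gene length in this difference was not tested further.

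**Figure D2:**
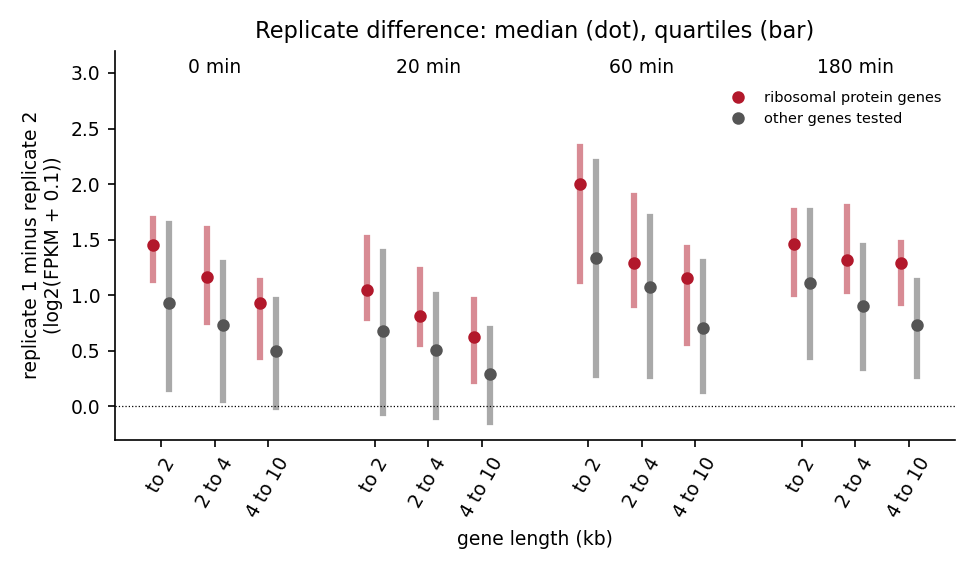
Replicate 1 minus replicate 2 in log2(FPKM + 0.1) at each time, by gene length in kb, for ribosomal protein genes (red) and other genes tested (grey), with medians as dots and quartiles as bars. The red median lies above the grey one in all 12 pairs, and both are above 0.

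Some members did not share this difference. Rpl38, a large subunit protein known for its part in the translation of Hox mRNAs, was at 5.13 and 8.67 FPKM at 0 min, 4.29 and 9.71 at 20 min, 7.88 and 17.9 at 60 min and 5.42 and 4.78 at 180 min. It was higher in replicate 2 at 0, 20 and 60 min. Rps18, of the small subunit head, was at 8.38 and 8.78 FPKM at 0 min, 7.28 and 8.98 at 20 min, 12.1 and 13.9 at 60 min and 9.34 and 3.93 at 180 min, with replicate 2 slightly higher until 60 min and lower at 180 min. Rpl24, Rpl41, Rpl6, Rps25, Rpl10 and Rpl5 were also among the members in which replicate 1 was not higher at every time. The largest difference was that of Rpl36 at 60 min, 3.54 on the log2 scale.

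Changes over time were read with and without the replicate number. The unpaired fit treats the 2 libraries of a time as independent and counts the replicate difference as spread. The paired fit takes the replicate number as a block. The labels do not say that a number marks a shared preparation, but replicate differences correlated between every pair of times over all genes tested (r 0.59 to 0.88). Changes are differences of log2(FPKM + 0.1), which understate the change of low genes, given ± SE of the unpaired fit unless the fit is named. A gene was called at a Benjamini-Hochberg adjusted p under 0.05 in limma over all genes tested, and rose or fell is written of called genes only.

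At 20 min the ribosomal protein genes as a group stayed near their 0 min level. In limma, 0 of 80 members were called in the unpaired fit and 0 in the paired fit, where 0.108% of all genes tested were higher and 0% lower unpaired, and 2.3% higher and 0.683% lower paired. The unpaired fit also held 0 members with an unadjusted p below 0.05, against 234 genes higher and 264 lower among the 8343 tested. The median change was -0.01 over the members and -0.20 over all genes tested. It was -0.13 in replicate 1 and 0.13 in replicate 2, so its sign differed between the pairs, and with 1 library left out the unpaired median lay between -0.56 (without replicate 2 at 0 min) and 0.53 (without replicate 1 at 0 min). Changes ran from -0.68 for Rps27l to 0.79 for Rplp0. Rplp0, which anchors the stalk that recruits translation factors, was at 8.13 and 2.23 FPKM at 0 min, 11.2 and 4.93 at 20 min, 12.9 and 3.96 at 60 min and 9.02 and 2.98 at 180 min. Both its 20 min values exceeded the 0 min value of the same replicate, and the groups overlapped.

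At 60 min most members were above their 0 min level in both replicates, by a small amount. The median change over the members was 0.31, with 0.43 in replicate 1 and 0.19 in replicate 2, against -0.29 over all genes tested. Both replicate pairs were higher in 55 members and lower in 2, where 28.9% and 57.7% of all genes tested were higher and lower in both. The unpaired fit called 1 of 80 members higher and 0 lower (all genes tested, 5.07% and 8.8%), and the paired fit 6 higher and 0 lower (11.7% and 27.9%). As single genes, few members passed the test. Leaving out 1 library moved the unpaired median between -0.32 (without replicate 1 at 60 min) and 0.96 (without replicate 2 at 60 min).

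In replicate 1 the 60 min library was the highest of the 4 for 72 of 80 members, against 26% of all genes tested. In replicate 2 it was so for 37 members, against 21.3%, and in 36 members for both replicates. The lowest library was most often that of 20 min in replicate 1 (55 members or 68.8%, against 24% of all genes tested) and that of 180 min in replicate 2 (37 members or 46.2%, against 60.8%). The 60 min maximum was thus common in both replicates, more so in replicate 1, and the lowest times differed.

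Rpl24 was the member called at 60 min in both fits. Its product, a large subunit protein at the interface with the small subunit, is altered in the Belly spot and tail mouse. Rpl24 lies at 55966388 to 55971550 on chromosome 16 (mm9, plus strand, as the table lists it). It was at 4.34 and 4.29 FPKM at 0 min, 4.85 and 5.15 at 20 min, 9.58 and 10.1 at 60 min and 11.6 and 9.54 at 180 min. Every 60 and 180 min value was above every 0 and 20 min value, and replicates were close. Rpl24 rose by 1.17 ± 0.28 at 60 min (limma adjusted p = 0.0352, paired fit 0.00234). The unpaired call was lost when any 1 library of 0, 20 or 60 min was left out, with an adjusted p of up to 0.193 (without replicate 1 at 0 min), and under quantile normalization (0.0689). Against 20 min the change was 0.96 ± 0.28, called in the paired fit alone (limma adjusted p = 0.0103, unpaired 0.108).

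The other members that rose at 60 min did so in the paired fit alone. Rpl19, Rplp0, Rpl32 and Rps20 were among them. Rpl19, a large subunit protein that forms a bridge to the small subunit, was at 6.18 and 1.99 FPKM at 0 min, 7.08 and 3.53 at 20 min, 10.9 and 3.65 at 60 min and 7.396 and 2.39 at 180 min. Its change was 0.83 ± 0.82 (limma adjusted p = 0.584, paired fit 0.0195). Each replicate pair was higher at 60 min, while the replicates lay far apart. Rpl32 was at 5.66 and 2.33 FPKM at 0 min, 4.99 and 3.15 at 20 min, 9.03 and 3.98 at 60 min and 6.54 and 2.68 at 180 min, a change of 0.71 ± 0.65 (limma adjusted p = 0.546, paired fit 0.0365). Rplp0, with the values given above, changed by 0.73 ± 0.89 (limma adjusted p = 0.666, paired fit 0.0305). Under quantile normalization in the paired fit Rplp0 (adjusted p = 0.0614) and Rps20 (0.119) were no longer called by limma.

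Against 20 min, 60 min values were higher in both replicates for 47 members and lower in 2 (all genes tested, 34% and 38.3%). The median change was 0.30 (0.56 in replicate 1 and 0.06 in replicate 2), against -0.06 over all genes tested. Without replicate 1 at 60 min the unpaired median was -0.43, and without replicate 2 it was 0.95. The unpaired fit of limma called 0 members (2.28% of all genes tested higher and 3.46% lower). Unadjusted p was below 0.05 for 1 member (higher), and for 594 genes higher and 988 lower among the 8343 tested. Pairing gave 5 called higher and 0 lower (9.29% and 14.6%). Rpl22, Rpl24, Rpl23a and Rpl35 were among those that rose. Rpl22 had the largest change, 1.02 ± 0.58 (limma adjusted p = 0.425, paired fit 0.0268). Rpl23a, a large subunit protein at the exit of the peptide tunnel, was at 10.9 and 8.28 FPKM at 0 min, 9.03 and 5.54 at 20 min, 14.7 and 10.6 at 60 min and 11.4 and 5.55 at 180 min. Rpl35, which lies beside it at the tunnel exit, was at 4.72 and 3.66 FPKM at 0 min, 4.09 and 3.11 at 20 min, 7.75 and 5.06 at 60 min and 4.76 and 2.16 at 180 min. In both genes the 60 min value was the highest of its replicate.

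At 180 min the members as a group were back near their 0 min level while genes in general were lower. The median change from 0 min was 0.01 over the members (0.10 in replicate 1 and -0.07 in replicate 2) and -0.69 over all genes tested. The change of 74 of 80 members lay above that median of all genes. The unpaired fit called 2 members higher, Rpl24 among them, and 0 lower, where 8.93% of all genes tested were higher and 23.4% lower. With either of the 0 min libraries left out it called 0 members higher, and the unpaired median lay between -0.66 without replicate 1 and 0.64 without replicate 2 at 180 min. Pairing gave 4 called higher and 7 called lower (14.2% and 51.6%). Both replicate pairs were higher in 26 members and lower in 19 (20.2% and 69.1%). Members spread less than genes in general, with an interquartile range of 0.29 in replicate 1 and 0.83 in replicate 2 against 1.16 and 1.54.

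The scaling sets what these changes are relative to. With median-ratio scaling, which brings the median change of all genes to about 0, the median change of the members was 0.22, 0.63 and 0.74 at 20, 60 and 180 min. The paired fit with that scaling called 0, 31 and 46 members higher and 0 lower at the 3 times, against 2.01%, 19.5% and 26.1% of all genes higher and 0.276%, 20.3% and 25.8% lower. With quantile normalization the medians were -0.02, 0.17 and -0.07. Within each replicate most members' changes from 0 min lay above the median change of all genes. At 180 min 80 of 80 were above it in replicate 1 and 67 in replicate 2. Genes of like length were also compared. Among genes of 2000 to 4000 bases, the median change at 180 min was 0.07 for the 46 members and -0.90 for the 709 others.

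**Figure D3:**
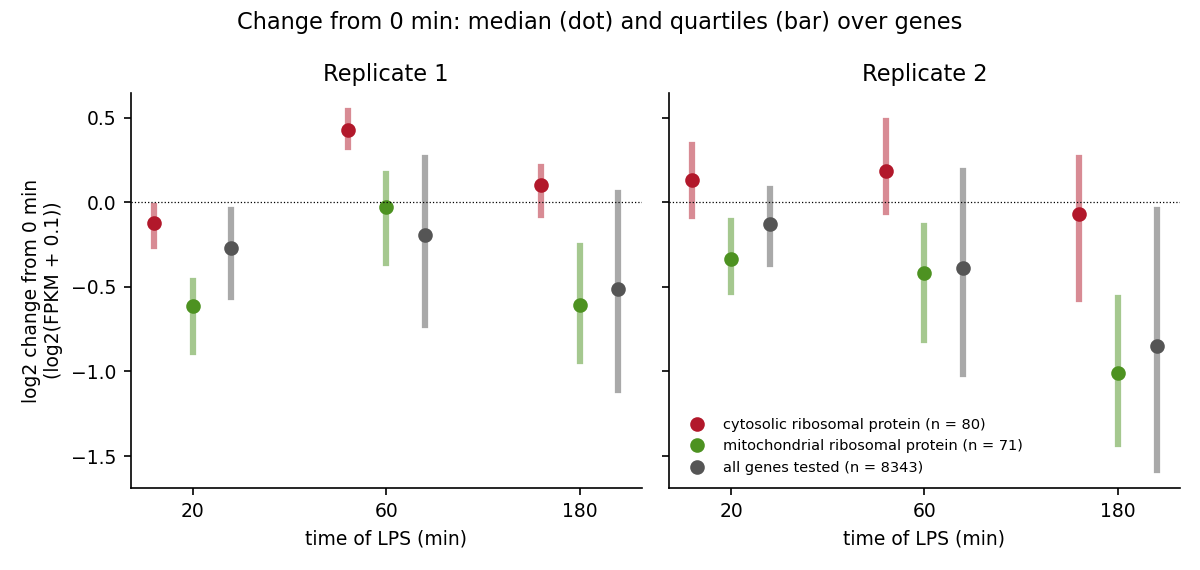
Change from 0 min in log2(FPKM + 0.1) within replicate 1 and replicate 2, as medians (dots) and quartiles (bars) over cytosolic ribosomal protein genes, mitochondrial ribosomal protein genes and all genes tested. The cytosolic group lies highest at each time, at 0.43 and 0.19 at 60 min and at 0.10 and -0.07 at 180 min.

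Rpl24, with the values given above, rose by 1.26 ± 0.28 at 180 min (limma adjusted p = 0.0150, paired fit 8.52e-04). The adjusted p was 0.0884 without replicate 1 and 0.0952 without replicate 2 at 0 min. Rps20 and Rps2 rose at 180 min in the paired fit alone. Rps20, a small subunit head protein, was at 11.8 and 4.36 FPKM at 0 min, 16.1 and 5.53 at 20 min, 18.9 and 7.25 at 60 min and 23.9 and 8.92 at 180 min. Within each replicate every later time was above the one before, and between replicates the values lay far apart. The change at 180 min was 1.01 ± 0.82 (limma adjusted p = 0.360, paired fit 0.00219), and it was 1.01 in replicate 1 and 1.02 in replicate 2. For Rps2, with the values given above, the change was 0.90 ± 0.78 (limma adjusted p = 0.392, paired fit 0.0401). It was 0.46 in replicate 1 and 1.34 in replicate 2, and with quantile normalization the paired fit no longer called it (adjusted p = 0.442). The start of Snhg9, on the other strand, lies 98 bases from that of Rps2, with 11.8 to 89.8 FPKM in the 8 libraries, and strand handling is not given in the sources used here.

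The 7 members that fell at 180 min in the paired fit were Rpl13a, Rpl22, Rps27l, Rps16, Rpl7l1, Rps28 and Rps19, and under median-ratio scaling none was called and Rps19 and Rps28 changed sign (0.045 and 0.038). Rpl13a, which can leave the ribosome to join an mRNA-silencing complex in activated myeloid cells, was at 9.89 and 5.896 FPKM at 0 min, 7.52 and 3.85 at 20 min, 12.9 and 5.73 at 60 min and 8.29 and 2.01 at 180 min. Rpl13a changed by -0.88 ± 0.75 (limma adjusted p = 0.384, paired fit 0.0285), by -0.25 in replicate 1 and by -1.51 in replicate 2. Rps16 was at 6.13 and 3.58 FPKM at 0 min, 6.68 and 3.595 at 20 min, 8.96 and 3.62 at 60 min and 5.45 and 1.31 at 180 min, a change of -0.17 in replicate 1 and -1.38 in replicate 2. For Rpl22 the change was -0.85 ± 0.58 (limma adjusted p = 0.285, paired fit 0.0226), and for Rps27l it was -0.78 ± 0.70 (0.407, paired fit 0.0225). Without replicate 2 at 180 min the unpaired change was above 0 for Rpl13a (0.12), Rps16 (0.21), Rps27l (0.040) and Rps28 (0.038). In the plot of the 2 replicates' changes the 7 members lie low on the replicate 2 axis and between -0.41 and -0.17 on the replicate 1 axis.

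**Figure D4:**
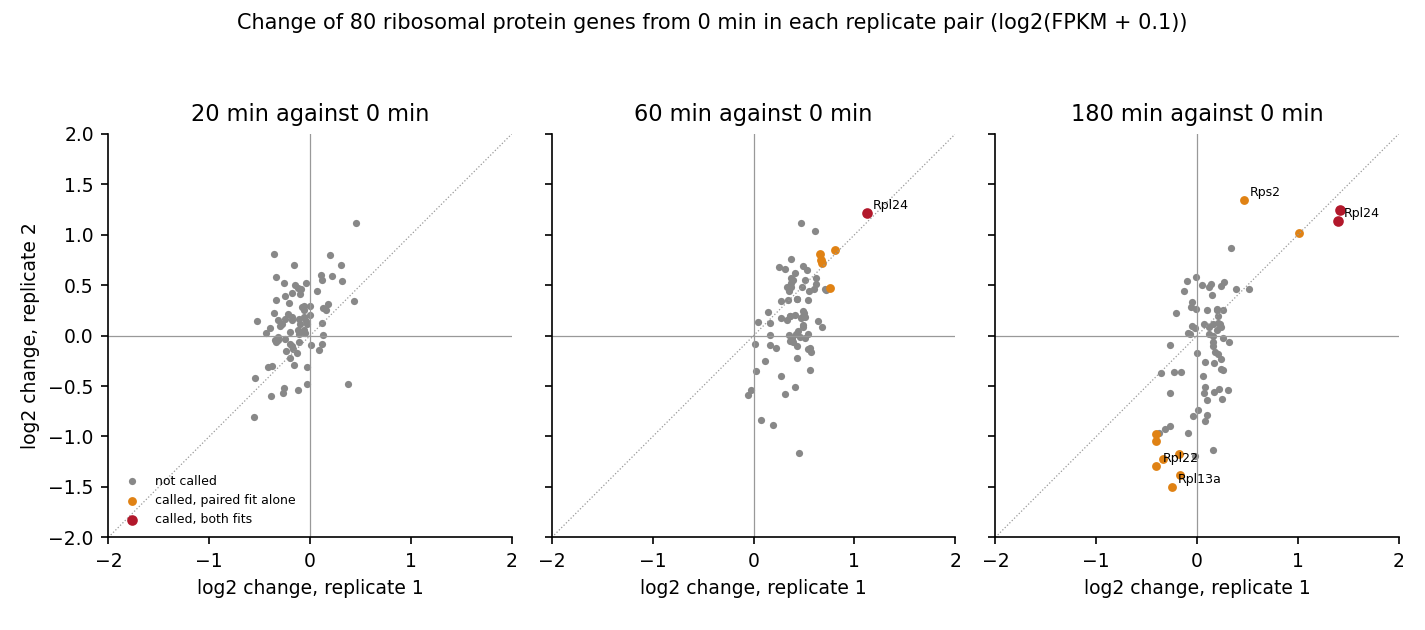
Log2 change from 0 min of the 80 tested members in replicate 1 (horizontal) and replicate 2 (vertical) at 20, 60 and 180 min, with members called in both fits in red and in the paired fit alone in orange. Rpl24 lies near the diagonal at 60 and 180 min, and the spread at 180 min is wider in replicate 2 (interquartile range 0.83) than in replicate 1 (0.29).

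From 60 to 180 min most members, like most genes tested, were lower in both replicates. That held for 52 members, with 4 higher in both, where 62% and 19.3% of all genes tested were lower and higher in both. The median change was -0.31 over the members (-0.32 in replicate 1 and -0.30 in replicate 2) and -0.39 over all genes tested, and with median-ratio scaling the members' median was 0.10. Without replicate 1 at 180 min it was -1.01, and without replicate 1 at 60 min 0.40. The unpaired fit of limma called 0 members (4.08% of all genes tested higher and 3.92% lower). Unadjusted p was below 0.05 for 1 member that was higher and 3 that were lower. Among the 8343 genes tested it was so for 708 higher and 1432 lower. Pairing gave 1 member called higher and 13 lower (10.5% and 26.9%). Those that fell were Rpl22, Rpl38, Rps25, Rps18, Rpl12, Rps19, Rps16, Rpl13a, Rpl35, Rpl14, Rps28, Rpl7l1 and Rplp2, of which Rpl22 was the member still called with median-ratio scaling (13.4% of all genes lower, and 15% higher). Rpl22 changed by -1.38 ± 0.58 (limma adjusted p = 0.193, paired fit 0.00541). Rps25, of the small subunit head, was at 4.89 and 5.15 FPKM at 0 min, 4.78 and 3.66 at 20 min, 7.58 and 7.71 at 60 min and 4.81 and 2.19 at 180 min, and its replicate 2 value at 180 min was the lowest of the 8. Rpl38 and Rps18, with the values given above, had changes of -1.21 ± 0.56 and -1.08 ± 0.44 (limma adjusted p = 0.227 and 0.181, paired fit 0.0209 and 0.0406).

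**Figure D5:**
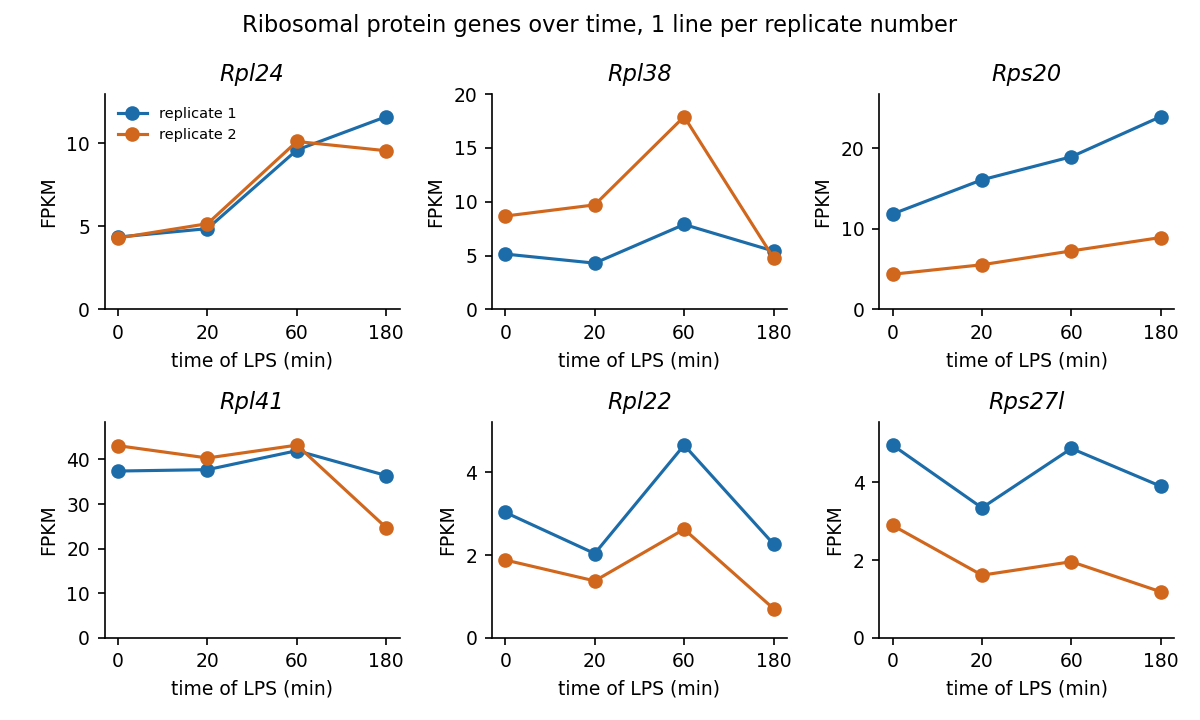
FPKM of 6 ribosomal protein genes over 0, 20, 60 and 180 min of LPS (times evenly spaced), with 1 line per replicate number and each vertical axis starting at 0. The lines of Rpl24 lie close together, that of replicate 2 is the higher one for Rpl38 until 60 min, those of Rps20 are higher at each later time, and those of Rpl22 peak at 60 min in both replicates.

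Members of known special function were looked at by role. Rplp1 and Rplp2, the acidic stalk proteins, were not called against 0 min in the unpaired or the paired fit, and with median-ratio scaling the paired fit called both higher at 60 min (limma adjusted p = 0.0159 and 0.0139) and Rplp2 higher at 180 min (0.0440). Rplp1 was at 5.49 and 1.33 FPKM at 0 min, 4.27 and 2.41 at 20 min, 7.65 and 3.002 at 60 min and 5.31 and 1.43 at 180 min. Rplp2 was at 5.23 and 2.81 FPKM at 0 min, 4.62 and 2.61 at 20 min, 7.73 and 3.85 at 60 min and 5.46 and 2.11 at 180 min. In both genes each replicate was highest at 60 min. Rpl5 and Rpl11 bind the 5S rRNA and, outside the ribosome, Mdm2. Replicate 1 was well above replicate 2 at every time for Rpl11, while for Rpl5 the replicates were furthest apart at 180 min. Rpl5 was at 5.52 and 4.104 FPKM at 0 min, 4.15 and 4.32 at 20 min, 7.904 and 6.05 at 60 min and 6.58 and 2.62 at 180 min. Rpl11 was at 8.47 and 1.78 FPKM at 0 min, 6.698 and 2.72 at 20 min, 10.9 and 3.097 at 60 min and 7.903 and 2.64 at 180 min. Both had their highest value at 60 min in each replicate, and neither was called in the unpaired or the paired fit. With median-ratio scaling the paired fit called Rpl5 higher at 60 min (limma adjusted p = 0.0330) and Rpl11 higher at 60 and 180 min (0.0386 and 0.0235). Rpl23, a further large subunit protein that binds Mdm2, was at 9.58 and 3.44 FPKM at 0 min, 10.4 and 5.100 at 20 min, 12.8 and 5.34 at 60 min and 11.5 and 5.04 at 180 min, and its 60 min values were the highest of their replicates too. Neither the unpaired nor the paired fit called Rpl23. With median-ratio scaling the paired fit called it higher at 60 and 180 min (limma adjusted p = 0.030 and 0.0064).

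Rps6, the target of the S6 kinases, was at 7.57 and 4.27 FPKM at 0 min, 7.59 and 5.26 at 20 min, 9.85 and 6.16 at 60 min and 8.698 and 4.46 at 180 min. Rps27a, made as a fusion with ubiquitin, was at 11.6 and 4.66 FPKM at 0 min, 11.3 and 6.72 at 20 min, 14.4 and 7.44 at 60 min and 12.3 and 3.26 at 180 min. Rps3, at the mRNA entry channel, was at 7.74 and 3.58 FPKM at 0 min, 6.17 and 3.48 at 20 min, 9.03 and 3.28 at 60 min and 6.94 and 2.77 at 180 min. None of the 3 was called in the unpaired or the paired fit, and at 60 min Rps3 was higher than at 0 min in replicate 1 alone. With median-ratio scaling the paired fit called Rps6 higher at 60 and 180 min (limma adjusted p = 0.0260 and 0.0124) and Rps27a higher at 60 min (0.0423). Rps19, the gene first linked to Diamond-Blackfan anaemia, was at 5.44 and 4.42 FPKM at 0 min, 5.92 and 4.17 at 20 min, 8.79 and 4.697 at 60 min and 4.81 and 1.901 at 180 min. Its 60 min values were the highest of their replicates and its 180 min values the lowest. Rpl3, which reaches the peptidyl transferase centre, was at 25.4 and 6.57 FPKM at 0 min, 26.7 and 8.97 at 20 min, 25.9 and 5.13 at 60 min and 21.1 and 4.399 at 180 min. It was not called in the unpaired or the paired fit, and with quantile normalization the paired fit called it lower at 180 min (limma adjusted p = 0.0433). Replicate 1 was higher than replicate 2 at every time.

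Paralogs were set beside their partners by FPKM, without a test, and the order was not the same in every library for all pairs. Rpl22l1, the paralog of Rpl22, was at 7.83 and 2.52 FPKM at 0 min, 7.36 and 3.51 at 20 min, 11.6 and 2.31 at 60 min and 8.87 and 2.24 at 180 min, above Rpl22 in each library except that of replicate 2 at 60 min. Rps27l, the p53-responsive paralog of Rps27, was at 4.96 and 2.895 FPKM at 0 min, 3.35 and 1.61 at 20 min, 4.88 and 1.96 at 60 min and 3.902 and 1.19 at 180 min, below Rps27 in every library. Rpl36al was at 6.904 and 2.46 FPKM at 0 min, 5.31 and 1.97 at 20 min, 7.91 and 1.28 at 60 min and 5.87 and 1.89 at 180 min and Rpl36a at 8.12 and 3.94 FPKM at 0 min, 6.48 and 3.91 at 20 min, 10.1 and 2.61 at 60 min and 8.12 and 3.495 at 180 min. Rpl36al was the lower of these in every library. Rpl7l1 was at 6.65 and 4.41 FPKM at 0 min, 5.26 and 4.23 at 20 min, 6.88 and 4.86 at 60 min and 4.97 and 2.08 at 180 min and Rpl7 at 7.83 and 3.23 FPKM at 0 min, 7.003 and 2.62 at 20 min, 9.48 and 2.43 at 60 min and 9.799 and 3.08 at 180 min. Rpl7 was higher in replicate 1 and Rpl7l1 in replicate 2 until 60 min. Rpl39, at the end of the peptide tunnel, was at 6.78 and 3.11 FPKM at 0 min, 5.799 and 3.61 at 20 min, 8.93 and 2.97 at 60 min and 6.45 and 3.16 at 180 min.

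The 4 members that did not enter the tests were paralogs with low values. Rpl10l, the testis paralog of Rpl10, was listed at 0 in all 8 libraries. Rpl39l, the testis paralog of Rpl39, was at 0.017 and 0 FPKM at 0 min, 0.030 and 0.280 at 20 min, 0.092 and 0.595 at 60 min and 0.361 and 0.510 at 180 min. Its 180 min values were above its 0 and 20 min values, at less than 1 FPKM. Rpl3l, known from striated muscle, lay between 0.022 and 0.287 FPKM, and Rps4l between 0.116 and 0.464 FPKM.

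The large and the small subunit had medians close to each other. At 60 min the median change was 0.35 over 49 tested members with Rpl or Rplp names and 0.28 over 31 with Rps names, and at 180 min it was 0.01 and 0.00. The paired fit called 4 and 2 members higher and 0 lower at 60 min, where it called 11.7% of all genes tested higher and 27.9% lower. At 180 min it called 1 higher and 3 lower in the first set and 3 higher and 4 lower in the second. Of all genes tested it called 14.2% higher and 51.6% lower at that time. The difference between the subunits was not tested.

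Other genes of the ribosome pathway did not all follow the members. Of 71 tested mitochondrial ribosomal protein genes, the unpaired fit called 2 higher and 0 lower at 60 min (all genes tested, 5.07% and 8.8%). At 180 min it called 1 higher and 9 lower (8.93% and 23.4%), and the paired fit 2 and 42 (14.2% and 51.6%). With median-ratio scaling the paired fit called 6 higher and 12 lower at 180 min (all genes, 26.1% and 25.8%). Their median changes were -0.46, -0.20 and -0.82 at 20, 60 and 180 min. Mrpl52, with 2.796 and 2.23 FPKM at 0 min and 13.3 and 40.95 at 60 min, was the one with the largest rise, and Mrpl41, with 3.58 and 3.36 FPKM at 0 min and 0.884 and 0.239 at 180 min, the one with the largest fall. Of 42 tested ribosome biogenesis genes, the median changes were -0.16, 0.37 and -0.68. At 180 min the unpaired fit called 1 of them higher, Wdr43, and 3 lower, Rrp1b, Wdr12 and Myc, and the paired fit 2 and 18. With median-ratio scaling the paired fit called 6 higher and 4 lower. The shares of all genes given for the mitochondrial list apply here too. Myc, a transcription factor that drives ribosome production, had 5.61 and 4.32 FPKM at 0 min, 12.8 and 8.21 at 60 min and 2.38 and 1.28 at 180 min.

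Of 16 other genes with TOP mRNAs, such as translation elongation factors, the unpaired fit called 1 lower at 180 min, Vim, and the paired fit 3 lower (all genes, 23.4% and 51.6%), and the median changes were 0.18, 0.40 and -0.04. At 60 min 2 of these genes rose and 0 fell in the paired fit (all genes, 11.7% and 27.9%). Adding median-ratio scaling to the pairing brought the number higher at 60 min to 11 (19.5% of all genes). At 180 min the calls with that scaling were mostly higher, 9 against 1 lower (26.1% and 25.8%). Vim, an intermediate filament gene, had 37.3 and 49.98 FPKM at 0 min and 10.1 and 11.3 at 180 min. Of the 4 ribosomal proteins outside the naming rule, 0 were called in the unpaired fit of limma and Rpsa fell at 180 min in the paired fit, while with median-ratio scaling the paired fit called 3 higher at 60 min and 1 higher and 0 lower at 180 min. Their median changes were 0.04, 0.52 and -0.65. Rpsa had 7.02 and 5.57 FPKM at 0 min, 10.8 and 7.67 at 60 min and 6.04 and 2.16 at 180 min. All 4 were higher at 60 min than at 0 min in both replicates. None of these lists was tested against the members.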

How the data were processed

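Nascent RNA was measured by GRO-seq in 8 libraries, 2 at each of 4 times. The authors deposited 1 FPKM value per gene and library, with mm9 gene coordinates. The submitters' processing notes name CASAVA 1.7, Bowtie2 2.0.5 and HOMER 4.6 and 4.7, without roles. How reads were counted over exons or genes, by strand and with duplicates, and the total used for FPKM, is not given in the sources used here. Listed lengths equalled the gene span in 99.3% of genes. A further 8 columns of per-library values were not used.

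The labels' time and replicate number gave the groups. Depth came from the step size of FPKM in genes of up to 4000 bases, where 100% of values were whole reads within 0.1 read. Genes averaging at least 0.5 FPKM were tested, and log2(FPKM + 0.1) was fitted with limma 3.58.1 in R 4.3.3 with a variance trend, all 4 groups in 1 model. Benjamini-Hochberg adjustment ran over all 8343 genes tested within each comparison. Replicate 1 minus replicate 2 correlated by 0.59 to 0.88 between all 6 pairs of times over genes, so the numbers were taken to pair the libraries, and a fit with the replicate block stands beside the unpaired one.

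The members, gene lists and tests were chosen with earlier results of these data known. Named members were those called with the largest change (up to 6 each way unpaired, up to 4 each way paired), the 4 highest and 4 lowest by mean FPKM, and a set list of stalk, 5S-binding, signalling and paralog genes. Rpl38 and Rps18 by replicate difference, Snhg9 as a neighbour, and the remaining called members, were named after their values were seen. Some genes that these rules name are not reported here, and counts and medians include them. Promoter sequences are from RefSeq on GRCm38.p6, matched by symbol, and were not placed on mm9. Alternatives were other pseudocounts (0.01, 1), filters (none, 1 FPKM) and scalings (median-ratio, quantile), the block, the block with median-ratio scaling, and each library left out. The block with quantile normalization was added after the data had been seen.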

Additional observations from a re-analysis of the deposited data

How the results depend on the processing

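The limits are 2 libraries per time, a replicate difference larger in the members than in genes in general, replicate 2 depths of 7.96 to 11.1 M reads that leave as few as 5 reads in a member, and unstated strand and multiple-match handling. Results kept their direction and their side of the threshold under a pseudocount of 0.01 and a filter of 1 FPKM. A pseudocount of 1 gave a median of -0.27 from 60 to 180 min. Without a filter 1 member was called higher at 60 against 20 min, and the share of all genes called without it is not given here. Median-ratio scaling, with or without the block, gave median changes of 0.22, 0.63 and 0.74 at 20, 60 and 180 min and of 0.10 from 60 to 180 min, and it reversed Rps19 (0.045) and Rps28 (0.038) at 180 min. Quantile normalization called 0 members higher at 60 min and 1 higher (Rpl24) and 1 lower (Rpl41) at 180 min, with a median of -0.22 from 60 to 180 min, the same with the block.

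With the replicate block, 6 members were higher at 60 min, 4 higher and 7 lower at 180 min, 5 higher at 60 against 20 min, and 1 higher and 13 lower at 180 against 60 min. The block with median-ratio scaling called 31 higher at 60 min and 46 higher at 180 min (19.5% and 26.1% of all genes tested). It called 7 higher and 0 lower at 60 against 20 min (12.9% and 14.4%). At 180 against 60 min it called 1 higher and 1 lower (15% and 13.4%). The block with quantile normalization called 4 higher at 60 min, 3 higher and 6 lower at 180 min, 2 higher at 60 against 20 min and 7 lower at 180 against 60 min. The shares of all genes called under quantile normalization are not given here, so the counts of members under it cannot be set against them.

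With a library left out, the lone sample is assumed to vary like the other groups, and the median then holds the replicate difference. Medians ranged from -0.56 to 0.53 at 20 min, -0.32 to 0.96 at 60 min, -0.66 to 0.64 at 180 min, -0.43 to 0.95 at 60 against 20 min and -1.01 to 0.40 at 180 against 60 min. Which members were called also changed with the library left out. The shares of all genes called in those fits are not given here, so counts of members, here or above, cannot be set against them. Changes that crossed 0, with their lowest and highest value, were those at 60 min of Rplp0 (-0.18 to 1.65, -0.11 without replicate 1 at 60 min) and Rps20 (-0.013 to 1.41). The others were those at 180 min of Rpl13a (-1.87 to 0.12), Rps16 (-1.76 to 0.21), Rps27l (-1.60 to 0.040) and Rps28 (-1.42 to 0.038), and those at 180 against 60 min of Rplp2 (-1.33 to 0.0020) and Rpl14 (-1.87 to 0.075, 0.017 without replicate 1 at 60 min).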

Other observations

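Members lie on 19 chromosomes, and their surroundings were read from the table's coordinates. For 12 of the 80 tested members, a gene on the other strand starts within 1000 bases upstream of the member's start. That is a share of 15%, against 15.9% of all genes tested. Starts inside a member's span were not counted, such as that of 1700034F02Rik, which overlaps Rps27a by 90 bases. Lrsam1, which starts 457 bases from Rpl12, was at 1.15 and 0.69 FPKM at 0 min and 0.166 and 0.105 at 180 min, while Rpl12 was at 6.66 and 3.88 FPKM and later at 5.34 and 1.99. Sphk2, a sphingosine kinase gene 69 bases from Rpl18, was at 10.99 and 4.38 FPKM at 0 min and 5.05 and 2.63 at 180 min, while Rpl18 was at 11.9 and 2.09 FPKM and later at 9.88 and 1.95. In an end-to-end pair, Dnase1l1 ends 82 bases from the end of Rpl10 on the other strand, and was at 8.77 and 13.3 FPKM at 0 min and 1.59 and 1.401 at 180 min, while Rpl10 was at 16.1 and 13.8 FPKM and later at 15.4 and 16.8. Rows with small RNA names (Snor, Mir or Scarna) inside a member's span numbered 0. Small RNAs without a row of their own would not be counted. These pairs were picked after their values were seen and carry no test. Without the 4 members that a same-strand row overlaps, the median changes of the other 76 were -0.01, 0.31 and 0.00 at 20, 60 and 180 min. Rows on either strand overlap 11 members. Tested members overlapped on the other strand alone, such as Rpl5 by Fam69a (963 bases), were kept among the 76.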
